A study of Mus musculus with 8 samples.

Results

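The 10 genes described here are the core circadian clock genes Arntl, Clock, Per1, Per2, Per3, Cry1, Nr1d1 and Nr1d2, the clock output gene Dbp, and Rgs16. They were chosen by name: every non-control probe whose gene name in the files, or current symbol by its transcript accession, is one of the 10 was taken. This gave 17 probes of the 41174 on the array, and all 17 were among the 33330 probes kept for testing. One probe, the brightest on average, stood for each gene, so that the genes make 10 of the 22220 tested.

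The circadian clock of liver cells is a feedback loop of transcription. ARNTL (also called BMAL1) and CLOCK bind E-boxes and activate the Per and Cry genes, whose proteins then repress them, and NR1D1 and NR1D2 (the REV-ERBs) repress Arntl, so that Arntl peaks at the opposite time of day to Nr1d1, Dbp and the Per genes. DBP is a transcription factor that binds D-boxes and carries the rhythm to many metabolic genes of the liver. Rgs16 encodes a protein that speeds the shut-off of heterotrimeric G proteins; in mouse liver its RNA is known to be rhythmic and to follow feeding.

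The study measured liver RNA of ICR scid mice of 8 wk on 8 two-colour Agilent arrays, each of which hybridised one RNA pool against another. In females, 8 mice given Adeno-Cux2 (an adenovirus for overexpression of the transcription factor Cux2) were set against 7 given Adeno-CMV, 5 days after treatment. In males, 12 mice given Adeno-Cux2 were set against 13 given Adeno-CMV at day 5, and 11 against 11 at day 3. Untreated males, 10 mice, were set against untreated females, 10 mice by the sample labels. Each comparison has 2 arrays with the dyes swapped, with pools of 3 to 7 animals that are taken here as different mice. All mice carry the scid defect, which leaves them without mature T and B cells. The labels used here give neither the promoter that drives Cux2, nor the viral dose, nor the hour at which livers were taken.

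Ratios below are log2 ratios, Adeno-Cux2 over Adeno-CMV or untreated males over untreated females, given for array 1 and array 2 and then as the mean ± SE of the limma model over all 8 arrays. A gene is called changed when its p, adjusted by Benjamini-Hochberg over all 22220 genes, is below 0.05. Levels are log2 channel intensities of 1 probe in 1 pool, and are set only against the same probe in other pools. The probe that stands for Cux2 was higher in the male pools labelled Adeno-Cux2, by 0.60 ± 0.09 at day 5 (adjusted p = 0.0043) and 0.49 ± 0.09 at day 3 (adjusted p = 0.00439), but lower in the female pools labelled Adeno-Cux2, at −0.61 ± 0.09 (adjusted p = 0.0045). A second Cux2 probe had the same signs, at −0.33 in females, 0.31 in males at day 5 and 0.43 in males at day 3. Between untreated sexes the standing probe was lower in males, at −1.88 ± 0.09 (adjusted p = 0.000182). Whether either probe reads the viral Cux2 is not stated, and the female pools are therefore named by their labels. All 10 hepatocyte markers were well above background in every pool, and every clock gene's standing probe was so in all 16 channels. The arrays lay on 2 slides, one with the untreated and the male day 5 arrays, the other with the male day 3 and the female arrays. Any value set across those slides carries the slide as well, and the slide and the difference cannot be told apart. Log2 ratios of the 2 arrays correlated across genes at r = 0.678 in females at day 5, 0.873 in males at day 5, 0.893 in males at day 3 and 0.612 in untreated mice.

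The promoters of 6 of the genes are shown here because these genes carry the changes described below: Rgs16 and Cry1 fell at day 5, Per1 moved the other way at day 3, and Nr1d2, Per3 and Dbp are among the genes that differed between the 2 arrays of males at day 3. Each sequence is the 250 bases before a RefSeq transcription start in build GRCm38.p6, on the gene's strand, at chr1:153740103-153740352 (+) for Rgs16, chr10:85185055-85185304 (−) for Cry1, chr11:69098699-69098948 (+) for the first start of Per1, chr14:18239107-18239356 (−) for Nr1d2, chr4:151044666-151044915 (−) for Per3 and chr7:45704997-45705246 (+) for Dbp. Capitals mark the E-box CACGTG, the D-box forms TTATGTAA and TTACGTAA, the ROR and REV-ERB half-site AGGTCA, the cAMP response element TGACGTCA and the CUX letters ATCAAT and ATCGAT, each searched on both strands.
Rgs16: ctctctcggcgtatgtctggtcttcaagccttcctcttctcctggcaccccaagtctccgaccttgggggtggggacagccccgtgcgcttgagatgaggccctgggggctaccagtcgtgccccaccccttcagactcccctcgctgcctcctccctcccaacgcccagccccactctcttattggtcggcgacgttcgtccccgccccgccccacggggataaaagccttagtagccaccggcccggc
Cry1: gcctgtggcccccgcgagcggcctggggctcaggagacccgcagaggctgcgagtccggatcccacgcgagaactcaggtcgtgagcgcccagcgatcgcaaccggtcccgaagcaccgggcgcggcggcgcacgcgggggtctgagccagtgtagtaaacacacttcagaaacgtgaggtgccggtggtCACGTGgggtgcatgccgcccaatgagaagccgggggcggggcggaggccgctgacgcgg
Per1, start 1: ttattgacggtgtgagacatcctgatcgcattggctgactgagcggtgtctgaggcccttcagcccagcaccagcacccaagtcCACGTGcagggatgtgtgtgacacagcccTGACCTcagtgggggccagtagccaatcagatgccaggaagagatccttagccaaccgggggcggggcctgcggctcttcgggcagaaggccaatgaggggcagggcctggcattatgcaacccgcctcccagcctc
Nr1d2: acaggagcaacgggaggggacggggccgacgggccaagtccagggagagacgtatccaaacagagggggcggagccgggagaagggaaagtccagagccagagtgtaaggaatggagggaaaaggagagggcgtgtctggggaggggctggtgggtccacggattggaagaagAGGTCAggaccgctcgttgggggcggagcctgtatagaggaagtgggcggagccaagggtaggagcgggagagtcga
Per3: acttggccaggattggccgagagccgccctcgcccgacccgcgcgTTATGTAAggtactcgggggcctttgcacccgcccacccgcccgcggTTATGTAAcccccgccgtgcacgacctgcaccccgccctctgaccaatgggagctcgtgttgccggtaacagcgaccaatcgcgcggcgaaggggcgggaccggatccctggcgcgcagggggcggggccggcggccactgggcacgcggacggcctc
Dbp: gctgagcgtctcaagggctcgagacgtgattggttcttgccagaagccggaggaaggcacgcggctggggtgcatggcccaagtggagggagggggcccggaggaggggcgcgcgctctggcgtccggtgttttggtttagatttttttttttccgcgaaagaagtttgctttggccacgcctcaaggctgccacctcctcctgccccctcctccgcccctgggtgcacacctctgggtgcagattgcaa

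RefSeq gave such a window for 9 of the 10 genes, in 13 entries, out of 32851 windows over 27025 genes. Cry1 holds 1 E-box, beginning 60 bases before the start, and the first start of Per1 holds 1 at 166 bases and an AGGTCA at 137 bases. Per3 holds the D-box TTATGTAA 2 times, at 205 and 158 bases before its start. Nr1d2 holds AGGTCA at 77 bases, as does the third start of Clock at 119 bases. None of these letters is in the windows of Rgs16, Dbp, Nr1d1 and Arntl. Over all windows, CACGTG is in 6.02%, TTATGTAA in 0.819%, TTACGTAA in 0.113%, AGGTCA in 14.0%, TGACGTCA in 1.55%, ATCAAT in 6.72% and ATCGAT in 0.728%. A match describes the letters of the window and does not show a bound site.

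Rgs16 was lower in the pools labelled Adeno-Cux2 in all 3 comparisons, 8.81-fold in females at day 5, 3.54-fold in males at day 5 and 8.59-fold in males at day 3, and it had the largest change of the 10 genes in each. The female direction rests on labels that Cux2 itself goes against: with the 2 female arrays turned, Rgs16 would be at 3.14 ± 0.31 and Cry1 at 0.85 ± 0.12, and every other female ratio given below would change sign likewise. Its probe lies at chr1:155507332-155507391 (+ strand, mm8 as the array's annotation gives it). In the female pools labelled Adeno-Cux2 its log2 level was 7.92 and 8.53, against 10.78 and 11.95 in the Adeno-CMV female pools. Male pools at day 5 had 11.35 and 11.39 with Adeno-Cux2, against 13.11 and 13.27 with Adeno-CMV. At day 3 male pools had 9.24 and 8.22 with Adeno-Cux2, against 12.78 and 10.89 with Adeno-CMV. The Adeno-Cux2 and Adeno-CMV pools did not overlap in any of these comparisons. With 2 pools a side this only describes the values, and the share of all genes without overlap was not counted. The log2 ratios were −2.86 and −3.42 in females (mean −3.14 ± 0.31, adjusted p = 0.0011), −1.76 and −1.89 in males at day 5 (−1.82 ± 0.31, adjusted p = 0.00758) and −3.54 and −2.67 in males at day 3 (−3.10 ± 0.31, adjusted p = 0.000314). Lower calls made up 6.31%, 4.95% and 20.3% of all genes in these comparisons. The male day 5 call was lost when either of its own arrays was left out (adjusted p = 0.0728 and 0.195) and without background subtraction (adjusted p = 0.0508), over a range of 8.93e-07 to 0.195 in 19 alternatives. In these RNA pools, fewer cells that express a gene and less of its RNA per cell cannot be told apart.

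Among untreated livers Rgs16 was not called between the sexes, but its level varied more than that of most genes. Untreated males had log2 levels of 10.95 and 13.07, against 12.82 and 13.55 in untreated females, so that the groups overlap. The ratios were −1.87 and −0.48 (mean −1.18 ± 0.31, adjusted p = 0.0571), lower in males on both arrays, and 5 of 19 alternatives called it lower (adjusted p 0.0245 to 0.579), among them the fit without the second untreated array (−1.84). The 2 untreated male pools lay 2.11 apart, or 4.33-fold, a gap that 29 of the 22220 genes (0.131%) reached in those pools, beside a median gap of 0.152 over all genes. The mean level of 8 exocrine pancreas markers also differed between these pools, at 7.18 in the first and 11.50 in the second, and its part in the gap was not tested. The order of the 8 pool types by mean level was Adeno-CMV males at day 5 (13.19) and untreated females (13.19), untreated males (12.01), Adeno-CMV males at day 3 (11.84), Adeno-Cux2 males at day 5 (11.37), Adeno-CMV females (11.36), Adeno-Cux2 males at day 3 (8.73) and females labelled Adeno-Cux2 (8.23). Of the 7 neighbouring pairs in this order 6 overlapped, and the 1 that did not was the step below the Adeno-CMV females. Such steps were not counted over all genes.

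**Figure D1:**
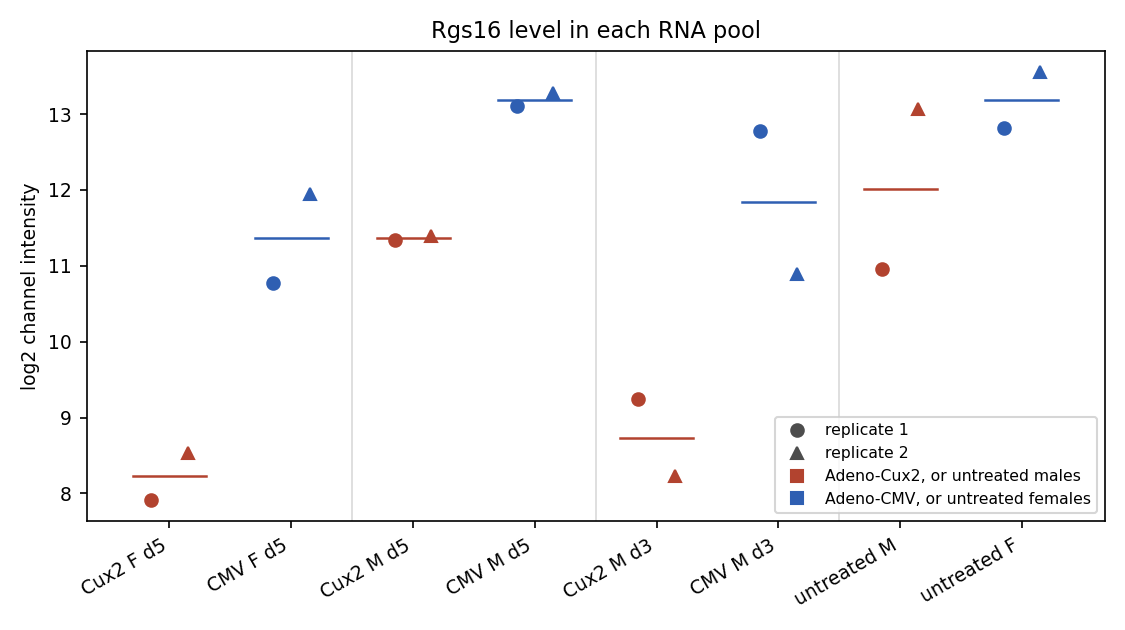
Log2 channel intensity of the Rgs16 probe in each of the 16 RNA pools, by pool type (F females, M males, d5 day 5, d3 day 3); circles are replicate 1, triangles replicate 2 and lines the mean of the 2. The 4 lowest pools, 7.92 to 9.24, are the female pools and the male day 3 pools labelled Adeno-Cux2; untreated males span 10.95 to 13.07.

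With the female labels as given, the drop of Rgs16 was deeper in females than in males at day 5 on every array, by a difference of −1.32 ± 0.43 (95% interval −2.35 to −0.28), but this did not pass the threshold (adjusted p = 0.314 by limma). With the female arrays turned the difference would be 4.96 ± 0.43 (adjusted p = 0.000294). It was shallower in males at day 5 than in males at day 3, by 1.28 ± 0.43 (interval 0.25 to 2.31), which also missed the threshold (adjusted p = 0.106). Both differences lie across the 2 slides. None of the 10 genes was called for the difference of females and males at day 5, beside 0.207% of all genes (limma), and 1 of them, Rgs16, had an unadjusted p below 0.05.

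The other members of the RGS family, which limit G protein signals in many cell types, mostly rose where they were called. Of 15 other RGS genes measured, 6 rose and 0 fell in females at day 5, 7 rose and 0 fell in males at day 5, and 7 rose and 2 fell in males at day 3. Higher calls made up 12.8%, 13.9% and 23.7% of all genes there, and the median log2 ratio of the family was 0.222, 0.188 and 0.0391 beside 0.00498, 0.00942 and −0.00243 over all genes. Rgs2, an inhibitor of Gq signals, had log2 ratios of 1.36 and 1.26 in female pools, 1.89 and 1.86 in males at day 5, and 1.46 and 1.34 in males at day 3 (adjusted p = 0.000263, 7.67e-05 and 3.85e-05). Rgs19 rose by 0.92 ± 0.07, 1.34 ± 0.07 and 1.88 ± 0.07 in the same order. Rgs10, a gene of leukocytes and microglia, rose by 0.86 ± 0.07 in females, and Rgs1, a leukocyte gene, by 1.56 ± 0.34 in males at day 5 and 1.55 ± 0.34 in males at day 3. Among untreated mice 3 of the 15 were lower in males and 0 higher, with Rgs2 at −0.58 ± 0.08, Rgs12 at −0.41 ± 0.08 and Rgs10 at −0.35 ± 0.07. Lower calls made up 6.14% and higher calls 4.93% of all genes there.

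**Figure D2:**
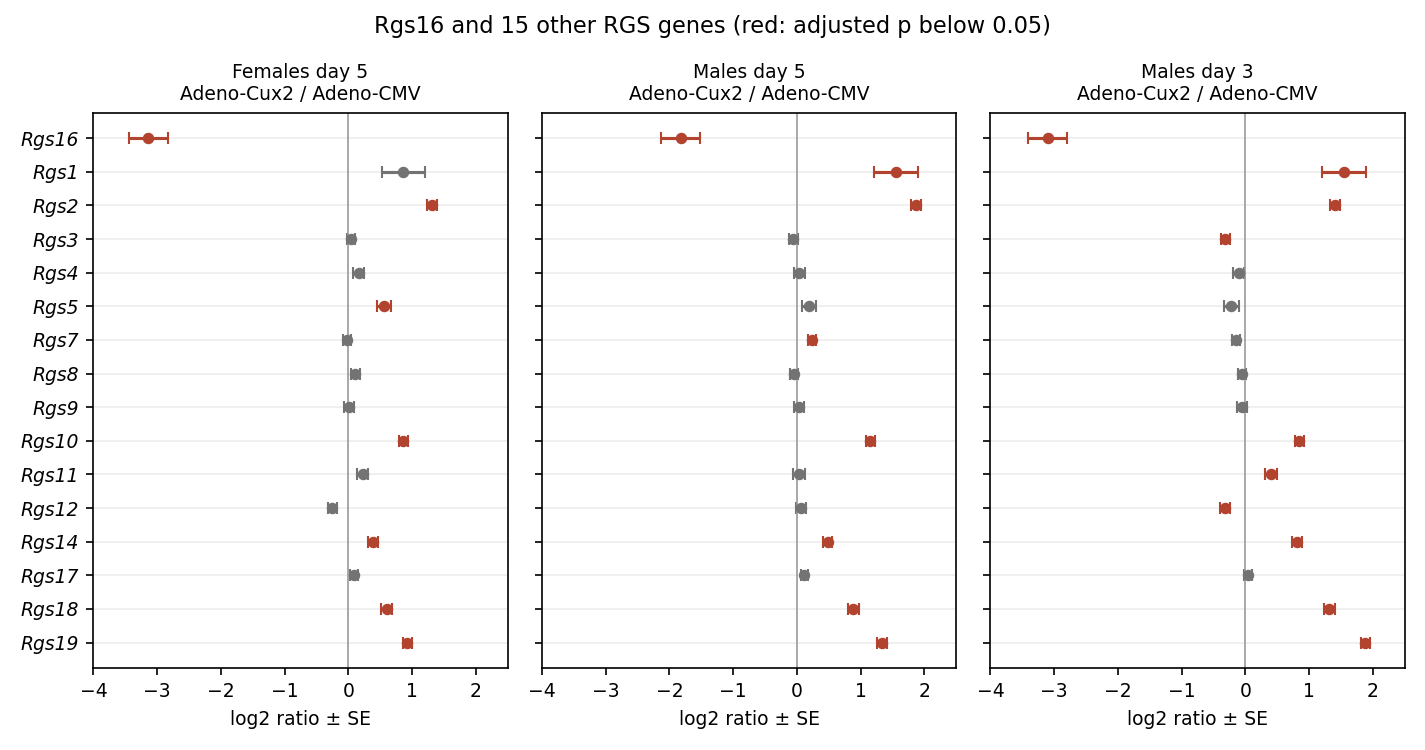
Log2 ratio ± SE (limma) of Rgs16, in the top line, and of 15 other RGS genes in the 3 Adeno-Cux2 comparisons; genes with an adjusted p below 0.05 are red. Rgs16 lies between −3.14 and −1.82, while 6 to 7 of the others lie above 0 with an adjusted p below 0.05.

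Neutrophil markers, and macrophage markers at day 5, mostly rose alongside these RGS genes, and their part in the family's change was not tested. The median log2 ratio of 10 NK and T cell markers was 0.167 and 0.0441 on the 2 female arrays. It was 0.421 and 0.462 in males at day 5, and 0.77 and 0.486 in males at day 3. For the marker counts that follow, the shares of all genes called higher were 12.8% in females at day 5, 13.9% in males at day 5 and 23.7% in males at day 3. The shares called lower were 6.31%, 4.95% and 20.3%. Of 9 neutrophil markers 7 rose in each of the 3 comparisons. The mean log2 level of the neutrophil markers was 10.71 to 10.82 in female pools labelled Adeno-Cux2 against 9.29 to 9.55 with Adeno-CMV. It was 10.25 to 10.33 against 8.29 to 8.40 in males at day 5, and 9.60 to 9.73 against 8.26 to 8.63 in males at day 3. Macrophage markers rose for 7, 8 and 5 of 10, with 4 lower in males at day 3. Of 10 hepatocyte markers 3 rose and 1 fell at day 5 in either sex. At day 3 in males 0 rose and 6 fell. The list medians were 0.274, 0.283 and −0.305 in the same order of comparisons. On array 1 and array 2 the hepatocyte median was 0.4 and −0.0278 for female pools, and 0.368 and 0.00277 for day 5 males. For day 3 males it was −0.324 and −0.55. The positive day 5 medians therefore rest mainly on the first array of each comparison. On the female arrays 7 of 9 skeletal muscle markers were lower in the pools labelled Adeno-Cux2 (mean level 6.71 to 7.51) than in the Adeno-CMV pools (8.20 to 10.43), and the mean of 8 exocrine pancreas markers was 14.14 and 6.95 in the pools labelled Adeno-Cux2 against 9.95 and 7.74 in the Adeno-CMV pools. Pancreas markers also differed between the Adeno-Cux2 pools of males at day 3 (6.92 and 10.39), and muscle markers between those of males at day 5 (7.04 and 9.86). Their part in the values of these pools was not tested.

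ChREBP is the carbohydrate-responsive factor that turns on genes of sugar use and lipid synthesis in fed liver. Of 13 genes of its list measured, 7 fell and 1 rose in females at day 5, 4 fell and 1 rose in males at day 5, and 9 fell and 1 rose in males at day 3. Lower calls made up 6.31%, 4.95% and 20.3% of all genes there, and higher calls 12.8%, 13.9% and 23.7%. The medians were −0.453, −0.22 and −0.818. G6pc, the last enzyme of glucose release, had −1.05 and −0.82 in female pools, −0.89 and −1.13 in males at day 5 and −2.37 and −2.92 in males at day 3 (adjusted p = 0.00671, 0.00442 and 4.21e-05). Khk, which phosphorylates fructose, fell by 0.79 ± 0.15 on the log2 scale in males at day 5 and 1.71 ± 0.15 at day 3, and Me1, the malic enzyme, by 0.72 ± 0.10 and 1.30 ± 0.10. In females Fgf21, a hormone of the fasted and sugar-fed liver, had −1.08 ± 0.16 and Klf10 −1.07 ± 0.18 (adjusted p = 0.00536 and 0.00874). Among untreated mice 1 of 13 was higher in males, Gpd1 at 0.30 ± 0.07, and 1 lower, Arrdc4 at −1.35 ± 0.13, beside 4.93% and 6.14% of all genes.

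Of 9 measured genes that mark fasting or feeding, 1 rose and 0 fell in females at day 5, and 2 rose and 0 fell in males at day 5 and again at day 3. Among all genes 12.8%, 13.9% and 23.7% were called higher in these comparisons, and 6.31%, 4.95% and 20.3% lower. The single genes named next are therefore not a change of the list as a whole. Tat rose in females by 0.83 ± 0.20. Igfbp1, which rises in fasting, rose by 2.08 ± 0.44 in males at day 5 and 3.26 ± 0.44 at day 3, and Angptl4 rose by 0.87 ± 0.22 at day 3 and Got1 by 0.45 ± 0.11 at day 5. In untreated mice Igfbp1 was lower in males, at −3.52 and −2.04 (mean −2.78 ± 0.44, adjusted p = 0.0118), as were Got1 (−1.18 ± 0.11) and Ppargc1a (−0.90 ± 0.13), and 0 were higher. Of all genes 6.14% were lower and 4.93% higher there.

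Over the 10 genes, 0 rose and 2 fell in females at day 5 (Rgs16 and Cry1), beside 19.1% of all genes called in either direction, and 0 rose and 2 fell in males at day 5 (the same 2), beside 18.8%. At day 3 in males Per1 rose and Rgs16, Nr1d1, Nr1d2 and Dbp fell, 5 of 10 beside 44% of all genes. In untreated mice Per1 alone was called, lower in males, beside 11.1%. The medians of the 10 log2 ratios were 0.0432, −0.109, −0.512 and 0.0465, beside 0.00498, 0.00942, −0.00243 and −0.00703 over all genes. Without its first array the day 3 comparison called 4 of the 10 (1 higher and 3 lower), and without its second 6 (1 higher and 5 lower), and the lower genes besides Rgs16 were different ones, as described below.

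**Figure D3:**
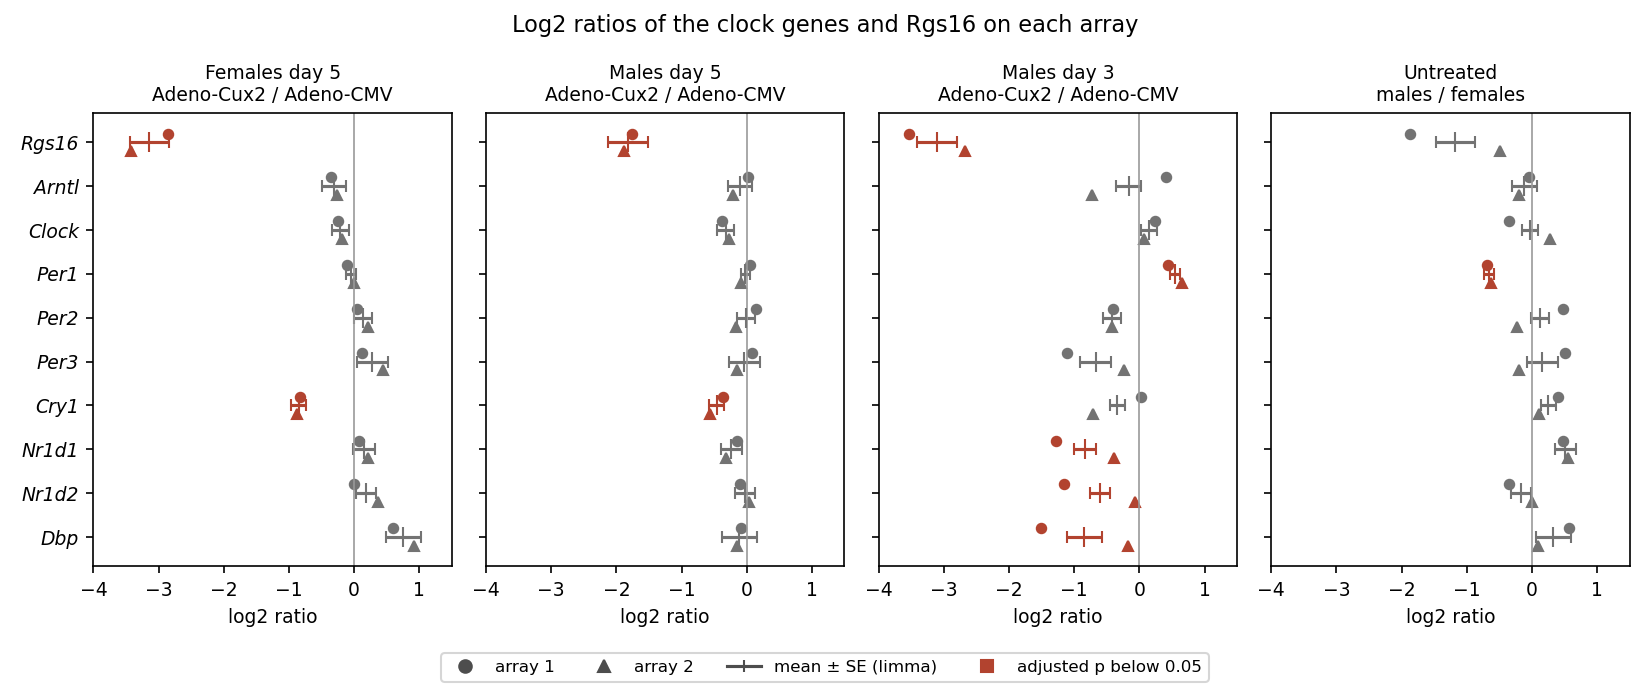
Log2 ratios of Rgs16 and the 9 clock genes on array 1 (circles) and array 2 (triangles) in 4 comparisons, with the mean ± SE of limma; genes with an adjusted p below 0.05 are red. In males at day 3 the 2 arrays lie apart for Dbp, Nr1d1, Nr1d2, Per3 and Arntl; Rgs16 lies at or below −1.76 in every Adeno-Cux2 comparison.

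The activators Arntl and Clock were not called in any comparison. Arntl had log2 ratios of −0.35 and −0.27 in females at day 5 (adjusted p = 0.33), 0.01 and −0.21 in males at day 5 (adjusted p = 0.782), 0.41 and −0.73 in males at day 3 (adjusted p = 0.535) and −0.04 and −0.20 in untreated mice (adjusted p = 0.736). Its day 3 arrays point in opposite directions. With the first of them left out, Arntl was called lower at −0.68 (adjusted p = 0.0129), and with the second left out it had 0.36; over 19 alternatives its adjusted p was 0.0129 to 0.987. Clock was at −0.21 ± 0.13 in females, −0.32 ± 0.13 in males at day 5 (called in 3 of 19 alternatives), 0.15 ± 0.13 in males at day 3 and −0.03 ± 0.13 in untreated mice. It has 4 probes, and at day 5 all 4 were below 0 in both sexes, from −0.27 to −0.21 in females and from −0.36 to −0.16 in males. When all 33330 probes were tested one by one, 1 of them, A_52_P334677, passed in males at day 5 at −0.36 (adjusted p = 0.022) and A_52_P279391 passed in males at day 3 at 0.35 (adjusted p = 0.0389). Calls made up 16.8% and 42.9% of all probes there.

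Per1, a repressor of the loop that also answers directly to glucocorticoids and cAMP, was the 1 Per gene called in any comparison. Its probe lies at chr11:68925571-68925630 (+, mm8). Male pools at day 3 had levels of 10.20 and 9.43 with Adeno-Cux2, against 9.76 and 8.78 with Adeno-CMV, with ratios of 0.44 and 0.65 (mean 0.55 ± 0.08, 1.46-fold, adjusted p = 0.00142), higher on both arrays and called in 19 of 19 alternatives. In untreated mice it had levels of 10.00 and 10.25 in males, against 10.69 and 10.87 in females, with ratios of −0.69 and −0.62 (mean −0.66 ± 0.08, 1.58-fold lower, adjusted p = 0.00376). The sexes do not overlap there, for which no share of all genes was counted. At day 5 its ratios were −0.10 and 0.01 in females and 0.05 and −0.09 in males (adjusted p = 0.733 and 0.905), with 95% intervals of −0.23 to 0.13 and −0.20 to 0.16. Its response in males at day 5 was below that at day 3 by −0.57 ± 0.11 (95% interval −0.82 to −0.31, adjusted p = 0.0205), beside 12.9% of all genes called for that difference. It was the only 1 of the 10 called there, the 2 times lie on different slides, and the call was lost when either array of either time was left out (adjusted p between 0.0587 and 0.187, and 0.0167 to 0.187 over 18 alternatives).

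Most genes of a list that glucocorticoids turn on were, like Per1, lower in untreated males than in untreated females. The list names Per1 itself, and the counts below were not made without it. Of 9 measured, 7 were lower in males and 0 higher (median −0.805), beside 6.14% and 4.93% of all genes, led by the metallothionein Mt2 at −2.05 and −2.04, the lipid enzyme gene Lpin1 at −1.49 and −1.41 and the receptor co-chaperone gene Fkbp5 at −0.99 and −1.53. At day 3 in males, where Per1 rose, 3 rose and 3 fell, beside 23.7% and 20.3% of all genes, with Sgk1 at 0.71 ± 0.11, Dusp1 at −0.77 ± 0.11 and Klf9 at −0.72 ± 0.13. At day 5, where higher calls made up 12.8% of all genes in females and 13.9% in males and lower calls 6.31% and 4.95%, 1 rose and 2 fell in females (Sgk1 at 0.59 ± 0.11, Mt2 at −1.14 ± 0.22, Lpin1 at −0.83 ± 0.12). In males 1 rose and 4 fell at day 5, with Sgk1 at 0.74 ± 0.11, Lpin1 at −0.98 ± 0.12 and Klf9 at −0.51 ± 0.13. Their part in the values of Per1 was not tested.

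Per2 and Per3, the other repressors of the family, were lower on both arrays of males at day 3 without passing the threshold. Per2 had −0.41 and −0.42 (mean −0.42 ± 0.14, adjusted p = 0.0518), and was called in 9 of 19 alternatives. A second, dimmer Per2 probe, A_52_P536869, passed over all probes at −0.33 in males at day 3 (adjusted p = 0.00475) and at 0.32 in untreated males over females (adjusted p = 0.0245, beside 9.78% of probes), whereas the brighter probe was at 0.13 there. Per3 had −1.11 and −0.23 in males at day 3 (mean −0.67 ± 0.24, adjusted p = 0.059) and was called in 8 of 19 alternatives. At day 5, Per2 was at 0.14 ± 0.14 in females and −0.01 ± 0.14 in males, and Per3 at 0.28 ± 0.24 in females and −0.04 ± 0.24 in males. Neither was called between the untreated sexes (Per3 at 0.16 ± 0.24, adjusted p = 0.715).

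Cry1, the repressor partner of the PER proteins, fell at day 5 in both sexes. Female pools labelled Adeno-Cux2 had levels of 8.62 and 8.69, against 9.45 and 9.56 with Adeno-CMV, and male pools had 8.20 and 8.17 with Adeno-Cux2, against 8.57 and 8.74 with Adeno-CMV. The pools do not overlap in either sex, for which no share of all genes was counted. The ratios were −0.83 and −0.87 in females (mean −0.85 ± 0.12, 1.80-fold lower, adjusted p = 0.00397) and −0.36 and −0.56 in males (mean −0.46 ± 0.12, 1.38-fold lower, adjusted p = 0.0356). The probe, at chr10:84573549-84573608 (−, mm8), has a second beside it, A_52_P420500, which had −0.81 in females (adjusted p = 0.0236 over all probes) and −0.40 in males (adjusted p = 0.194). The male call was lost in 6 of 19 alternatives, among them a fit without the dye term (adjusted p = 0.0957) and both fits that left out one of its own arrays (adjusted p = 0.412 and 0.241), over a range of 0.00182 to 0.412. The female call was lost in 1, without the first female array (−0.66, adjusted p = 0.0759; range 0.00205 to 0.0759). At day 3 the male arrays differed, at 0.03 and −0.71 (mean −0.34 ± 0.12, adjusted p = 0.0524), and with the first array left out Cry1 was called lower at −0.62 (adjusted p = 0.0137; range 0.0137 to 0.758). The female response was not called different from the male one at day 5 (−0.39 ± 0.16, adjusted p = 0.48).

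Nr1d1 and Nr1d2, the REV-ERB repressors of Arntl, were called lower in males at day 3 and in no other comparison. Nr1d1 had −1.28 and −0.38 (mean −0.83 ± 0.17, 1.78-fold lower, adjusted p = 0.00675), with levels of 8.25 and 8.05 with Adeno-Cux2 against 9.53 and 8.44 with Adeno-CMV. Nr1d2 had −1.16 and −0.06 (mean −0.61 ± 0.15, 1.52-fold lower, adjusted p = 0.0174), with levels of 12.80 and 12.57 against 13.96 and 12.63. Both means rest mainly on the first array. Without it Nr1d1 was at −0.39 (adjusted p = 0.0677) and Nr1d2 at −0.20 (adjusted p = 0.262), over ranges of 0.0022 to 0.0677 and 0.00335 to 0.262. Nr1d2 was called in 14 of 19 alternatives and was also lost without background subtraction (0.0593), with median centring (0.0664), with no dye term (0.0662) and on its own 2 arrays (0.0968). The 2 dimmer probes of Nr1d1 had −0.23 and −0.16 at day 3 (adjusted p = 0.0784 and 0.135 over all probes). In untreated mice Nr1d1 was higher in males on both arrays, at 0.48 and 0.55, without passing (adjusted p = 0.1, called in 2 of 19 alternatives).

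Dbp, the output factor of the loop, was called lower in males at day 3 at −0.84 ± 0.27 (1.79-fold lower, adjusted p = 0.0426), with ratios of −1.51 and −0.17. Without the first array it was at −0.13 (adjusted p = 0.695), and it was called in 10 of 19 alternatives (range 0.00533 to 0.695). In females at day 5 it was higher on both arrays, at 0.60 and 0.91 (mean 0.75 ± 0.27), without passing (adjusted p = 0.107); it was called in 3 of 19 alternatives (range 0.0176 to 0.414), which were the fit on its own 2 arrays and those without either day 3 array. It was at −0.12 ± 0.27 in males at day 5 and 0.33 ± 0.27 in untreated mice (adjusted p = 0.825 and 0.475). The probe lies at chr7:45577937-45577996 (+, mm8).

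The single pools behind the day 3 arrays differed in the same genes. The 2 Adeno-CMV pools of males at day 3 were further apart than the median gene in all 10. Dbp had log2 levels of 14.83 and 11.55 in them, a gap of 3.28 or 9.71-fold, which 12 of 22220 genes (0.054%) reached, beside a median gap of 0.106. The first pool was also higher in Rgs16 (by 1.88), Nr1d2 (1.33), Per3 (1.24), Nr1d1 (1.09) and Per1 (0.98), and lower in Arntl (by −1.77), Cry1 (−0.777) and Clock (−0.423). Per2 had the smallest gap of the 10, at 0.343. The Adeno-Cux2 pools of the same arrays had gaps of the same sign in all 10 genes, from 1.94 in Dbp (13.32 and 11.38) and 1.02 in Rgs16 to −0.256 in Clock and −0.636 in Arntl. The smallest was in Cry1 at −0.0407, beside a median gap of 0.086 over all genes. Both levels of an array are computed from its shared mean intensity and its log2 ratio. The share of all genes with gaps of the same sign was not counted. Genes of the loop outside the 10 also differed between the Adeno-CMV pools: the repressor gene Ciart had a gap of 2.76, the DBP relative Tef 1.58, Cry2 0.877, the CLOCK relative Npas2 −0.726 and the D-box repressor Nfil3 −0.443. With all 16 channels quantile-normalised instead, a choice made after these values were seen, the gap of Dbp was 3.22 and that of Arntl −1.73.

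**Figure D4:**
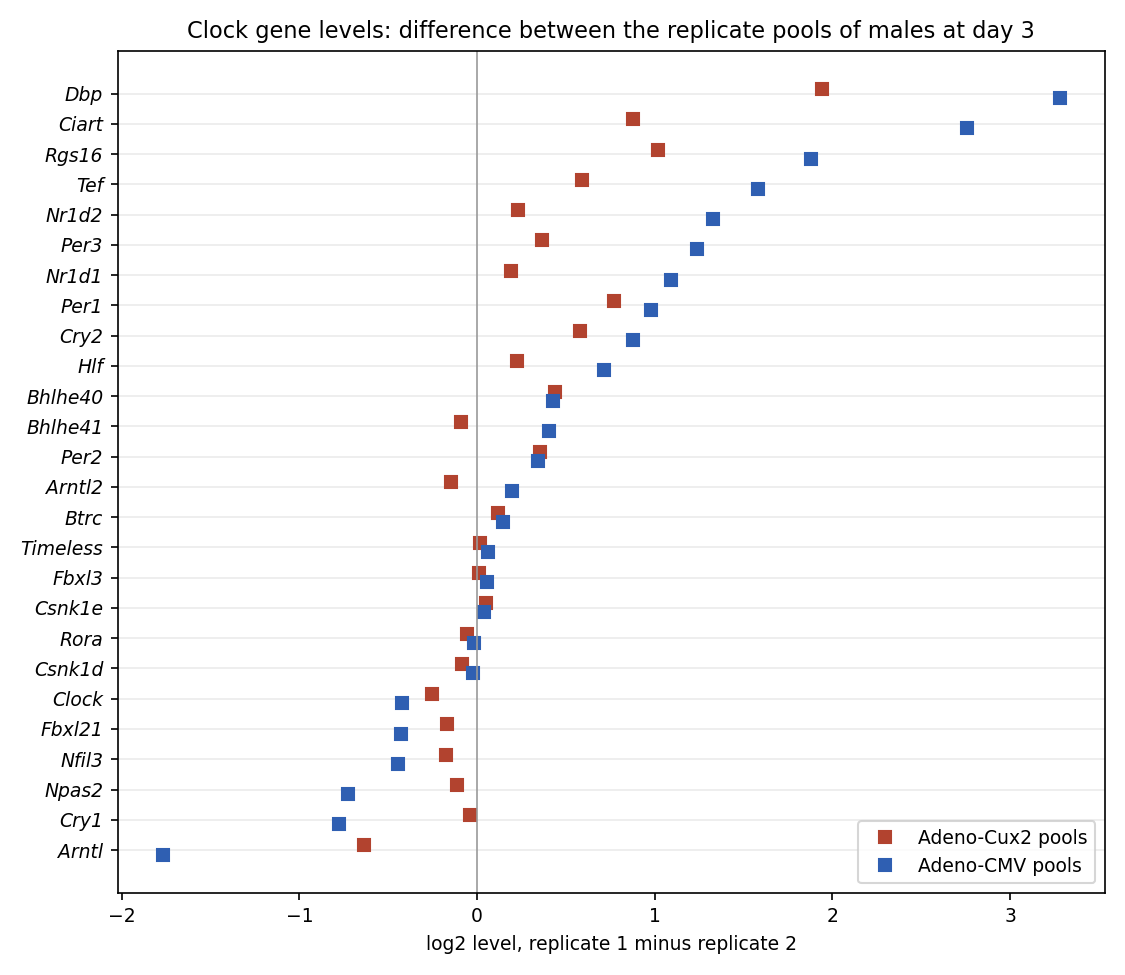
Log2 level of replicate 1 minus replicate 2 in the pools of males at day 3, for the 10 genes and 16 other clock genes, in Adeno-Cux2 pools (red) and Adeno-CMV pools (blue). The Adeno-CMV gaps run from 3.28 in Dbp to −1.77 in Arntl, with a median gap of 0.106 over all genes.

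The female pools stood at the end of this range that has low Dbp and high Arntl. Dbp had levels of 11.11 and 11.74 in pools labelled Adeno-Cux2, against 10.51 and 10.83 in Adeno-CMV pools, and Arntl had 11.84 and 11.96 against 12.20 and 12.23. Male pools at day 5 stood at the other end: Dbp had 14.52 and 14.34 with Adeno-Cux2, against 14.60 and 14.49 with Adeno-CMV, and Arntl 9.94 and 9.69 against 9.93 and 9.90. Untreated pools had Dbp at 14.84 and 14.45 in males and 14.27 and 14.36 in females. The female and day 3 arrays share a slide, and the male day 5 and untreated arrays lie on the other. Where pools on different slides are set side by side, the slide and the difference cannot be told apart. The part of the hour of collection in these levels was not tested, since the labels used here do not give it.

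**Figure D5:**
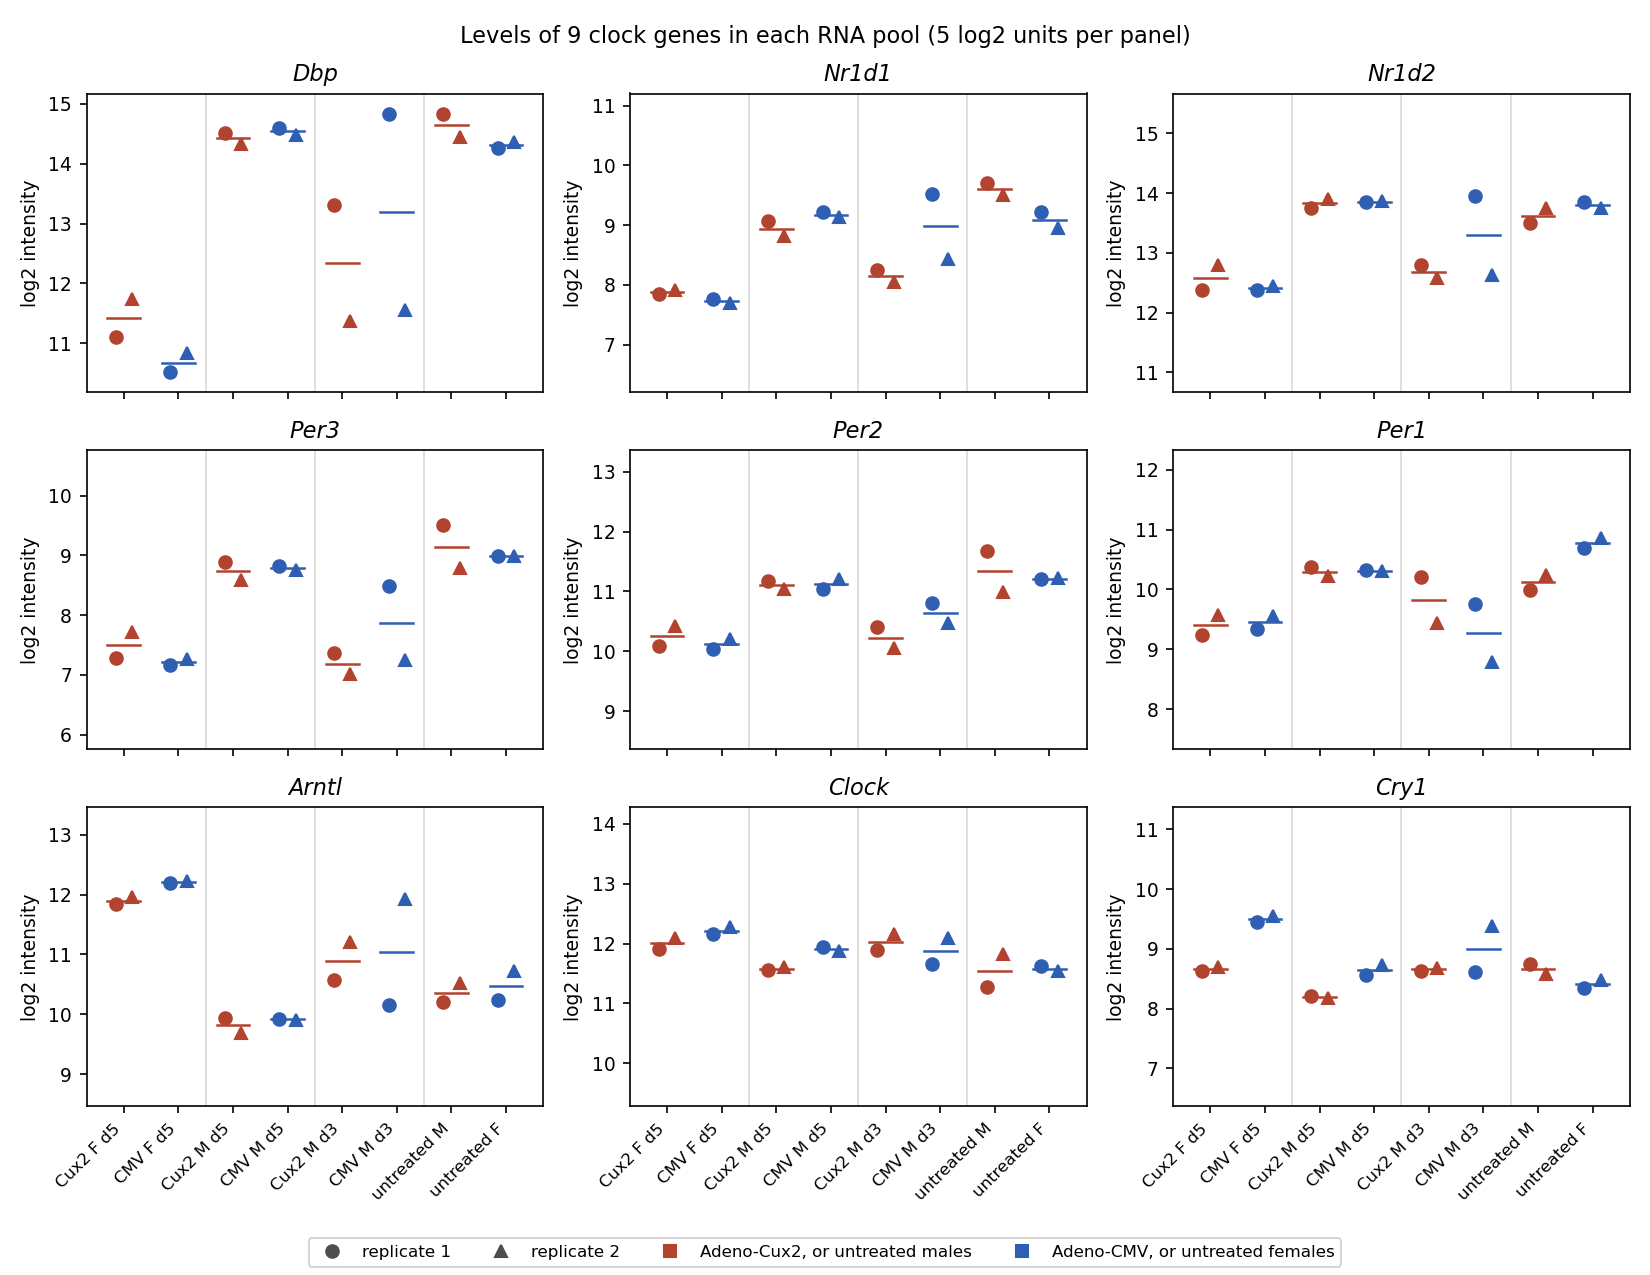
Log2 channel intensity of 9 clock genes in each of the 16 pools, by pool type, each panel spanning 5 log2 units; circles are replicate 1, triangles replicate 2 and lines the mean. Dbp, Nr1d1, Nr1d2 and Per3 are low and Arntl high in the 4 female day 5 pools and in the second pools of males at day 3. In those second pools Dbp is 11.38 and Arntl 11.20 with Adeno-Cux2, and 11.55 and 11.93 with Adeno-CMV. The first Adeno-Cux2 pool at day 3 is also low in Nr1d1 (8.25), Nr1d2 (12.80) and Per3 (7.38), with Dbp at 13.32 and Arntl at 10.57.

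In the order of the 8 pool types by mean level, most neighbours overlapped. The steps without overlap are described for these genes only and were not counted over all genes. For Dbp the order was untreated males (14.64), Adeno-CMV males at day 5 (14.54), Adeno-Cux2 males at day 5 (14.43), untreated females (14.31), Adeno-CMV males at day 3 (13.19), Adeno-Cux2 males at day 3 (12.35), females labelled Adeno-Cux2 (11.43) and Adeno-CMV females (10.67), and only the last step did not overlap. Arntl ran nearly the opposite way, from Adeno-CMV females (12.21) to Adeno-Cux2 males at day 5 (9.81), with 2 of 7 steps that did not overlap. Nr1d2 had none, Clock and Per1 1 each, Per2 2, Per3 and Cry1 3 each, and Nr1d1 4. Per1 was highest in untreated females (10.78), above all other pool types, and lowest in Adeno-CMV males at day 3 (9.27). The whole range over 16 pools was 5.64 for Rgs16, 4.33 for Dbp, 2.54 for Arntl, 2.49 for Per3, 2.09 for Per1, 2.00 for Nr1d1, 1.65 for Per2, 1.59 for Nr1d2, 1.39 for Cry1 and 1.01 for Clock.

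Of 16 other clock genes measured, 0 rose and 4 fell in females at day 5, 0 rose and 1 fell in males at day 5, and 2 rose and 5 fell in males at day 3. The 7 called at day 3 are 43.8% of the list, beside 44% of all genes, and the shares at day 5 are 25% in females and 6.25% in males, beside 19.1% and 18.8%. The DBP relative Hlf fell at day 3 on both arrays, at −1.46 and −0.97 (mean −1.22 ± 0.14), as did the repressor gene Bhlhe40 (−0.79 ± 0.09) and Rora, an activator of Arntl (−0.34 ± 0.09). Tef (−0.91 ± 0.26) and Cry2 (−0.47 ± 0.14) fell more on the first array, as Dbp did, with −1.40 against −0.41 in Tef and −0.62 against −0.32 in Cry2. The kinase gene Csnk1e, whose product marks PER proteins for decay, rose by 0.79 ± 0.11 and Timeless by 0.50 ± 0.07. In females the 4 were Npas2 (−0.63 ± 0.13), Bhlhe40 (−0.56 ± 0.09), Hlf (−0.51 ± 0.14) and Timeless (−0.29 ± 0.07), and in males at day 5 the 1 was Bhlhe40 (−0.36 ± 0.09). In untreated mice 0 were higher and 2 lower in males, beside 4.93% and 6.14% of all genes. The 2 were Ciart at −1.45 and −1.33 and Timeless at −0.32 ± 0.07.

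Of 23 measured genes whose RNA cycles in liver downstream of the clock, 4 rose and 4 fell in females at day 5, 6 rose and 2 fell in males at day 5, 9 rose and 5 fell in males at day 3, and 1 was higher and 9 lower in untreated males. The share of the list called was 34.8%, 34.8%, 60.9% and 43.5%, beside 19.1%, 18.8%, 44% and 11.1% of all genes. The list was chosen with earlier results of these data known. It holds genes that differ between the untreated sexes, such as Elovl3, Cyp2a4 and Cyp2a5, and the shares were not counted without them. These shares do not by themselves show a change in the output of the clock. Elovl3, a fatty acid elongase, had −1.58 and −1.83 in female pools, −2.27 and −2.45 in males at day 5 and −3.47 and −3.96 in males at day 3, against 3.26 and 3.28 in untreated males over females. Pdk4, which holds back glucose oxidation, rose by 2.09 ± 0.20 in males at day 5 and 3.41 ± 0.20 at day 3. The steroid hydroxylase gene Cyp2a4 rose by 1.36 ± 0.16 and 1.59 ± 0.16, and was at −2.87 ± 0.16 in untreated mice beside Cyp2a5 at −1.70 ± 0.22; these are close relatives whose probes may not tell them apart. In females Ppara fell by 0.64 ± 0.11 on the log2 scale and the heme synthesis gene Alas1 rose by 0.58 ± 0.11.

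Across the 8 arrays the log2 ratios of Per3 and Dbp ran together most closely among the 10 genes (Pearson r = 0.952), followed by Dbp and Nr1d1 (0.87) and Per2 and Per3 (0.852). The most opposed pairs were Per1 and Nr1d1 (−0.797), Clock and Per2 (−0.775) and Arntl and Nr1d2 (−0.721). Rgs16 had r = 0.581 with Nr1d1, 0.465 with Cry1 and −0.666 with Per1. These are descriptions over 8 arrays that share the 4 comparisons, and the first day 3 array weighs on each. Over all genes, the 3 most like Rgs16 were Nanp (r = 0.982), AK088797 (0.97) and 4930481A15Rik (0.952), whose own ratios were much smaller. For Dbp they were BG075595, Mepe and Wwox (0.97, 0.966 and 0.959), for Nr1d1 Them4, L1Md-Tf30 and BE570772 (0.986, 0.982 and 0.979), for Per2 Sall4, Arl5a and Ttc34 (0.981, 0.978 and 0.976) and for Arntl Stk38l, ENSMUST00000103743 and 2010309G21Rik (0.97, 0.925 and 0.922).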

How the data were processed

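Liver RNA pools were hybridised in pairs to 8 two-colour Agilent 4x44k arrays, 2 a comparison with swapped dyes. The deposited files hold the scanner software's red and green median intensity and background per spot and its log10 ratio of red over green, with outlier and background flags, and no normalization between arrays, per the file headers (Agilent Feature Extraction 9.5.3.1 for 1 slide and 10.7.1.1 for the other). The deposited value table holds these log10 ratios turned to numerator over denominator, within 5e-06 of the scanner files on every array, with column medians of −0.00615 to 0. The software's log10 ratios, processed by the scanner software as deposited, served as an alternative.

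Median intensities were background-corrected (normexp, offset 50) and loess-normalised within arrays in limma 3.58.1 under R 4.3.3, with weight 0 for 1639 control spots and for flagged outliers. Ratios were turned to Adeno-Cux2 over Adeno-CMV or males over females. 1 limma model over 8 arrays had a term for each of 4 comparisons and 1 for the dye, with 3 residual degrees of freedom (prior 3.63). Dye orientation equals the replicate number on every array, so the dye term is also the replicate block. P-values are two-sided, adjusted over 22220 genes. With 2 arrays a comparison, their number limits the precision: the median SE was 0.0784. Replicates are taken as pools of different mice, since the labels count the mice of each pool. The p-values rest on the spread of the paired log2 ratios, pooled over the 4 comparisons with the dye term removed. They do not measure how far the levels of the 2 pools of a group lie apart. Levels are channel intensities after loess and Aquantile, with no test.

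Probes were named by RefSeq accession (24375), symbol (6301) or synonym (2426), and 8072 kept the file's name. Members and lists were chosen with earlier results of these data known; 2 genes of the lists are not reported here and were left out of the list counts. Named were all 10 genes with every probe, each called gene of the other clock genes, per other list and comparison the 3 called genes with the largest log2 ratio whose arrays agree in sign, and for 5 members the 3 genes with the highest Pearson r. The tests were checked on simulated data. Alternatives changed the background correction, offset, centring, dye term, arrays, filter, probes and spread estimate, and left out each array.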

Additional observations from a re-analysis of the deposited data

Results flagged for a closer look

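The response of Per1 differed between the 2 times in males. Its log2 ratio of Adeno-Cux2 over Adeno-CMV was −0.02 ± 0.08 at day 5 and 0.55 ± 0.08 at day 3, and the difference, −0.566 ± 0.108, passed in limma (adjusted p = 0.0205). The times lie on different slides, and slide and time cannot be told apart.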

How the results depend on the processing

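Rgs16 kept its call in 19 of 19 alternatives for the female arrays, 19 of 19 for males at day 3 and 16 of 19 for males at day 5; Per1 kept its call in 19 of 19 in males at day 3 and 17 of 19 in untreated mice. Each kept its direction. In males at day 5 the count of the 10 genes called was 0 when no background was subtracted, 1 for the software's log ratios, 1 with no replicate block (no dye term), 1 with the mean over a gene's probes and 4 from the comparison's own 2 arrays alone. In males at day 3 it was 3 without background subtraction, 3 with median centring and 8 with probes above background on all arrays. In untreated mice it was 2 with median centring, 2 with that filter and 0 from its own 2 arrays; for day 5 minus day 3 it was 0 with the software's ratios and 2 with median centring. Over all genes, untreated calls numbered 1597 when no background was subtracted, 1109 for the software's ratios and 408 from their own arrays. Female day 5 calls numbered 2596 and 2703 with the last 2 of these, and male day 5 calls 6328 from their own arrays. The female minus male difference had 1 call without background subtraction, 0 from the software's ratios and 21 with no replicate block, and day 5 minus day 3 had 649 with the software's ratios.

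With 1 array left out in turn, the lone array being assumed to vary like the others, the 10 genes' calls ran from 0 to 2 in untreated mice, 0 to 3 in males at day 5, 1 to 3 in females at day 5 and 0 to 2 for day 5 minus day 3. Over all genes they ran from 535 to 3973, 1045 to 5063, 1344 to 5212 and 36 to 3873, and from 5424 to 10891 in males at day 3 and 0 to 54 for females minus males. Sign changes fell on values that were not called: in untreated mice Arntl (−0.25 to 0.015), Clock (−0.35 to 0.28), Per2 (−0.20 to 0.46), Per3 (−0.35 to 0.67) and Dbp (−0.18 to 0.84). In males at day 5 they were Per1 (−0.15 to 0.11), Per2 (−0.069 to 0.051), Per3 (−0.24 to 0.16), Dbp (−0.35 to 0.11), Nr1d1 (−0.50 to 0.031) and Nr1d2 (−0.26 to 0.21), in females Per2 (−0.12 to 0.39), and in males at day 3 Arntl (−0.68 to 0.36) and Clock (−0.064 to 0.37). For females minus males they were Arntl (−0.50 to 0.086), Per1 (−0.16 to 0.10), Per2 (−0.11 to 0.40) and Nr1d2 (−0.031 to 0.44), and for day 5 minus day 3 Cry1 (−0.40 to 0.16) and Arntl (−0.46 to 0.58; −0.020 with the software's ratios and −0.092 with median centring). With the female arrays turned, a choice made after Cux2 was seen to be lower there, Rgs16 was at 3.14 and Cry1 at 0.85 in females, and their differences of females minus males were 4.96 and 1.31. The cause of the other changes was not tested. No replicate check beyond 2 arrays a comparison was at hand.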
